A study of Homo sapiens with 15 samples.

Results

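The genes described here are 37 genes of the endoplasmic reticulum (ER) chaperone system and the unfolded protein response, chosen by symbol from a fixed list of names. All 37 were found, once each, among 57905 listed genes, and all were among the 17214 genes that reached at least 0.5 FPKM (fragments per kilobase, a level scaled for gene length and library size) in at least 3 of 12 libraries. They were measured by RNA sequencing in SW480, an established human colorectal cancer line that the labels call intestinal epithelial. Control was wild-type SW480 given PBS for 4 h, and the LPS group was the same cells given lipopolysaccharide, a cell wall component of Gram-negative bacteria, at 1 µg/ml for 4 h. The other groups, labelled PINT shRNA1 and PINT shRNA1 with LPS, carried a stable lentiviral short hairpin RNA against the long non-coding RNA PINT and were given PBS or the same dose of LPS. Below, "LPS alone", "the hairpin alone" and "both" name the groups other than control. Each group has 3 libraries, and no group with a non-targeting hairpin was analysed here, so carrying a lentiviral hairpin and carrying this hairpin cannot be told apart.

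Proteins that enter the secretory pathway are threaded into the ER through the SEC61 channel, folded by chaperones of the HSP70, HSP90 and lectin families, and oxidised by protein disulfide isomerases. Molecules that fail to fold are handed to ER-associated degradation, which moves them back to the cytosol for the proteasome. When unfolded protein builds up, the sensors IRE1 (encoded by ERN1), ATF6 and PERK (encoded by EIF2AK3) start the unfolded protein response: IRE1 splices the messenger of XBP1, ATF6 is cut to release a transcription factor, and PERK slows translation while ATF4 is made. Spliced XBP1 and cleaved ATF6 raise chaperone and degradation genes through short promoter elements, whereas the PERK arm leads to ATF4, DDIT3 (CHOP) and PPP1R15A (GADD34). FPKM per gene do not report XBP1 splicing or ATF6 cleavage.

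ER stress response elements are a known feature of promoters in this system, so their copies in the members' promoters are shown before the values. Windows of 300 bases, from 250 before to 50 after a start site, were taken from RefSeq (GRCh38.p14) and matched by symbol for 34 of the 37 genes. DERL1, PDIA3 and SEC24D were not matched. Element I, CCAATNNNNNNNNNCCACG, was found on either strand in 7 of the 34 (20.6%), against 0.0916% of 27305 genes with a window. Those 7 were HSPA5, HSP90B1, which has 2 copies, CALR, CANX, PDIA6, CRELD2 and XBP1. Element II, ATTGGNCCACG, was found in 3 of 34 (8.82%), against 0.0696% of all genes, namely in HYOU1, with 2 copies, in SDF2L1 and in HERPUD1. In all, 10 members (29.4%) held either element, against 44 genes (0.161%) in the whole table, which include those 10. The members were chosen as known genes of this response. Their higher share is therefore a description and not a result of these data.

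These stretches are given because their genes include the most abundant HSP70 of the members and the isomerases PDIA6 and CRELD2, called below. They also include HERPUD1, the degradation gene with the largest fall, and XBP1 itself. The stretches read 5′ to 3′ on the strand of the gene, with the element in capitals and 16 bases on either side. The HYOU1 and CRELD2 elements lie on the opposite strand and so appear as their reverse complement. Positions are chr9:125241375-125241425 (minus strand) for HSPA5, chr2:10812837-10812887 (minus strand) for PDIA6, chr22:49918538-49918588 (plus strand) for CRELD2, chr22:28800587-28800637 (minus strand) for XBP1, chr16:56932009-56932051 (plus strand) for HERPUD1 and chr11:119057258-119057406 (minus strand) for HYOU1.
HSPA5: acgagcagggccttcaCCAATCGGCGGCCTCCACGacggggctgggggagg
PDIA6: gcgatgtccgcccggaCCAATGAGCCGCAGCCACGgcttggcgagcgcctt
CRELD2: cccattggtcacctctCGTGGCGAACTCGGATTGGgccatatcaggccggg
XBP1: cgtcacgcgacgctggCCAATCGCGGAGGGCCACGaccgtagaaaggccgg
HERPUD1: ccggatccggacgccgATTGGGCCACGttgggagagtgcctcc
HYOU1: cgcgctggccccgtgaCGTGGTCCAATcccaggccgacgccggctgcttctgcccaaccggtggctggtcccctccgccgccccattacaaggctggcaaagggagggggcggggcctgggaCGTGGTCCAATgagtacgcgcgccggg
The first base of the element lay 66 bases before the start site in HSPA5, 86 in PDIA6, 80 in CRELD2, 52 in XBP1 and 117 in HERPUD1, and the HYOU1 copies lay 185 and 79 bases before it. The core TGACGTG, which ATF6 and XBP1 are known to bind, was in 3 of 34 windows (8.82%, against 2.4% of all genes), in HYOU1, where it overlaps an element II, in SEC61A1 and in SSR3. The composite TGATGCAAT, known for ATF4 with a CEBP partner, was in 0 of 34 windows and in 0.293% of all genes. At so low a share of all genes, 0 of 34 does not set the members apart. Sites outside the window were not searched, so no member is read as lacking this element. These are matches of letters within the window and were not measured as binding.

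Most of the folding machinery was abundant in every group, and the sensors were not. In control the highest levels per length were those of CANX at 276 ± 8.77 FPKM (mean ± SD, n = 3), HSP90B1 at 227 ± 11.1, CALR at 224 ± 19.4 and HSPA5 at 185 ± 2.23. HSP90B1 and CALR lay within each other's spread. Then came P4HB at 173 ± 14.8, which overlapped HSPA5, and PDIA6 at 167 ± 1.17. At the other end were DNAJB9 at 6.58 ± 0.272, EDEM3 at 6.55 ± 0.294, SEC24D at 5.81 ± 0.527 and ERN1 at 5.27 ± 0.328, of which DNAJB9 and EDEM3 did not differ beyond their spread. CANX exceeded 99.15% of the genes tested and ERN1 exceeded 48.83%. The 37 genes summed to 0.508 to 0.51% of all FPKM in control, 0.5 to 0.517% with LPS alone, 0.53 to 0.543% with the hairpin alone and 0.525 to 0.543% with both. Members varied less between libraries than the typical gene: the median SD of log2 values was 0.0823 in control against 0.128 over all genes tested, and 0.0608 against 0.0868 in PINT shRNA1 with LPS. Most members were also more abundant than the typical gene. The SD was not compared with genes of similar level, so this is not read as a trait of the members.

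**Figure D1:**
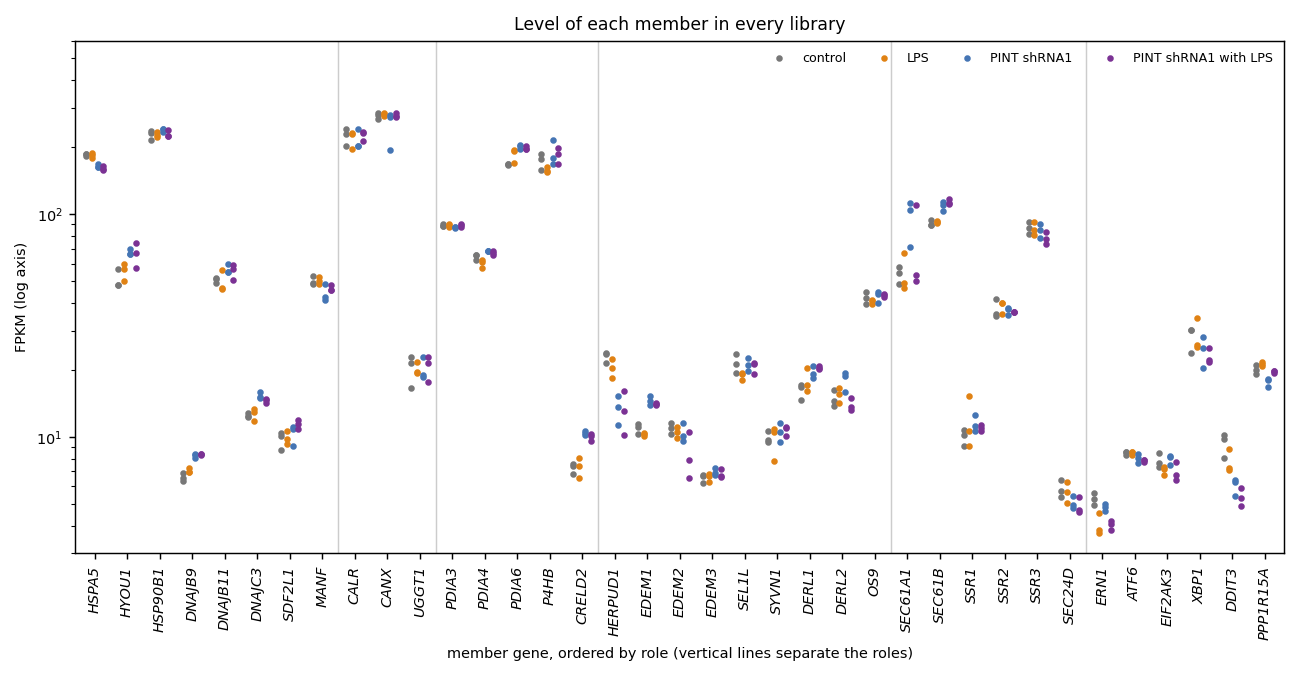
FPKM of each of the 37 genes (log axis) in each of the 12 libraries, coloured by group and ordered by role, with 3 points a group. CANX, HSP90B1, CALR and HSPA5 sit highest, at 185 to 276 FPKM in control, and ERN1 lowest, and for most genes the 4 groups lie on top of each other.

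LINC-PINT, the targeted gene, checks the labels and goes against them. Its level was 2.51 to 2.88 FPKM in control, 1.91 to 2.82 with LPS alone, 4.54 to 5.34 with the hairpin alone and 3.54 to 4.08 with both. It was thus higher in the libraries labelled with the hairpin, by 0.81 ± 0.118 (log2 fold change ± SE) without LPS (limma, adjusted p = 0.000592) and 0.61 ± 0.118 with LPS (limma, adjusted p = 0.00284). Permuting the libraries exactly gave a two-sided p of 0.1 each time, and 3 against 3 allow none smaller. The hairpin therefore stands below for a label of libraries, and nothing below is read as coming from a lower PINT level. Relative depth (control replicate 1 set to 1) was 0.809 to 1 in control, 0.848 to 0.859 with LPS alone, 0.914 to 1.05 with the hairpin alone and 1.3 to 1.51 with both. Genes above 0 numbered 27078 to 28430 in libraries without the hairpin and 30725 to 31961 in those with it. Of 10 colonic epithelial markers, 7 exceeded 0.5 FPKM, CDX1 was listed at 0 in every library, CDH17 was at 0 in every library without the hairpin, and LGALS4 did not exceed 0.3. The 10 summed to 2343 to 2667 FPKM in control, 2363 to 2407 with LPS alone, 1441 to 1536 with the hairpin alone and 1547 to 1607 with both. Of the 7 tested, 5 were called lower and 1 higher in each comparison with the hairpin. The 8 leukocyte markers summed to 1.31 to 1.75 FPKM without the hairpin and 2.59 to 3.19 with it, with PTPRC at 0.0713 or less, the 8 fibroblast markers to at most 1.41 and the 5 endothelial markers that were found to at most 0.423. The number of genes above 0, the epithelial markers and the low leukocyte sum thus moved with the hairpin label. Depth did not, as the hairpin alone overlapped control and only the group with both stood apart. Depth therefore differed along with LPS in hairpin libraries, and along with the hairpin in libraries given LPS. The part of depth, gene number and markers in the results below was not tested.

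The comparison of PINT shRNA1 with control asked how the ER machinery differed between cells with and without the hairpin. It differed gene by gene, in both directions. Every difference below is a log2 fold change with its SE, taken after adding 0.5 to the FPKM, so that changes of low genes come out too small. Genes are called where limma's p, adjusted over all 17214 genes, is under 0.05. CRELD2, HYOU1, EDEM1, DNAJB9, DNAJC3, PDIA6, SEC61B, DERL1, DERL2 and SEC61A1 were called higher, and HERPUD1, DDIT3, PPP1R15A and HSPA5 were called lower. These are 10 of 37 members higher, where 16.9% of all genes tested were called higher, and 4 of 37 lower, where 10.3% of all genes were. Called members made up 37.84% of the set, against 27.26% of all genes tested and 33.64% of the genes within the members' range of mean FPKM. The median difference was 0.02 over the members and 0.06 over all genes. The split depends on scaling: under median scaling and under quantile normalization it was 7 higher and 5 lower for the members, while all genes went from 2913 higher and 1780 lower to 2112 and 2279 under median scaling and to 2263 and 2204 under quantile normalization. RNA here comes from whole cultures, so a change per cell and a change in the mix of cells cannot be told apart.

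With LPS present in both groups, the comparison of PINT shRNA1 with LPS against LPS called 6 members higher and 3 lower. CRELD2, EDEM1, SEC61B, DNAJB9, DNAJC3 and PDIA4 were higher, where 17.7% of all genes were called higher, and HERPUD1, DDIT3 and HSPA5 were lower, where 11.6% of all genes were called lower. Called members were 24.32% of the set, against 29.24% of all genes tested. The median was 0.02 over the members and 0.05 over all genes. Groups that do not overlap, given for single members below, were common in both hairpin comparisons. Without LPS they were found for 11 members higher and 5 lower, and for 25.55% and 15.77% of all genes tested. With LPS in both groups they were found for 10 members higher and 7 lower, and for 27.68% and 18.06% of all genes. The share of all genes with all 6 hairpin libraries apart from the other 6 was not counted. Median scaling gave 4 members higher and 5 lower and quantile normalization 6 and 4, while all genes went from 3039 higher and 1994 lower to 2368 and 2549, and to 2561 and 2361. Of the genes within the members' range of mean FPKM, 35.53% were called here. The called share of the set was thus above that of all genes in the first comparison and below it in the second. The first share includes DERL1, DERL2 and SEC61A1, which passed the threshold narrowly. With a library left out, 10 to 13 members were called without LPS and 8 to 10 with it. The shares are therefore not read as a contrast between the comparisons, and the members are described by role below.

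**Figure D2:**
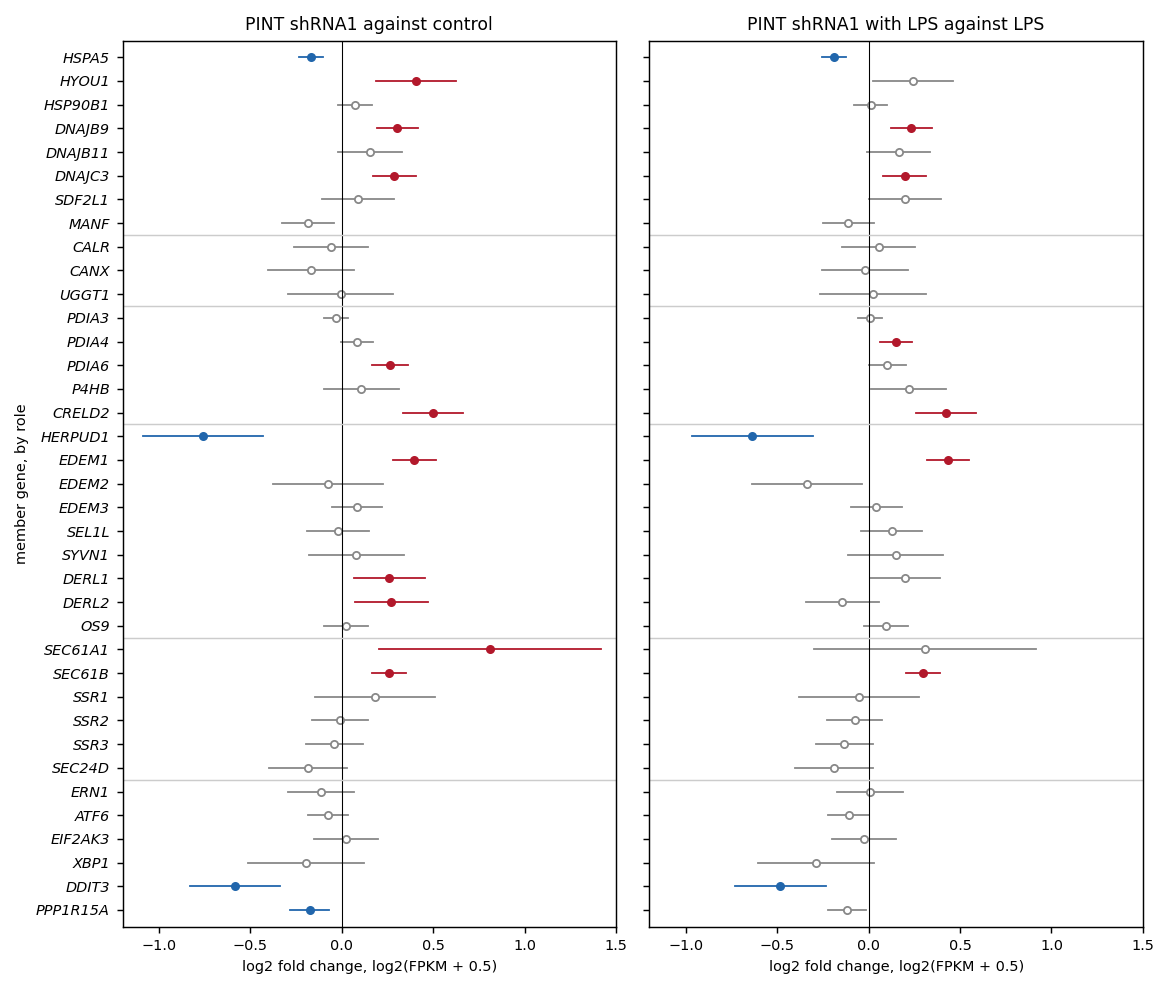
Log2 fold change of every member with its 95% confidence interval for PINT shRNA1 against control (left) and PINT shRNA1 with LPS against LPS (right), on the log2(FPKM + 0.5) scale. Filled red points were called higher and filled blue points lower. HERPUD1, DDIT3 and HSPA5 lie left of 0 in both panels and CRELD2 and EDEM1 right of 0 in both, while the interval of SEC61A1 is the widest.

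Within the HSP70 and HSP90 machinery HSPA5 fell in both hairpin comparisons, and 3 of its partners, DNAJB9, DNAJC3 and HYOU1, rose without LPS. Of the 8 genes of this role 3 were called higher and 1 lower without LPS, and 2 and 1 with it. Of all genes 16.9% were called higher and 10.3% lower without LPS, and 17.7% and 11.6% with it. With 8 genes these counts are not read as a pattern of the role. HSPA5, also called BiP, is the HSP70 of the ER lumen and keeps the stress sensors inactive when it is bound to them. It measured 182.5, 186.4 and 186.3 FPKM in the control libraries, 184, 187.1 and 179.4 with LPS alone, 162.5, 167.6 and 163.3 with the hairpin alone and 158.4, 159.8 and 164.1 with both. Every library with the hairpin lay below every library without it, by a small margin. The difference was -0.17 ± 0.0298 without LPS (limma, adjusted p = 0.00188) and -0.19 ± 0.0298 with LPS (limma, adjusted p = 0.000856), which is 1.12-fold and 1.14-fold lower. DNAJB9 and DNAJC3, J-domain co-chaperones of HSPA5, were higher. DNAJB9 read 6.88, 6.35 and 6.52 FPKM in control and 8.29, 8.37 and 8.06 in PINT shRNA1. With LPS its libraries read 6.93, 7.23 and 6.98 against 8.4, 8.32 and 8.35 with the hairpin, so that neither pair of groups overlapped. DNAJB9 differed by 0.30 ± 0.0511 (limma, adjusted p = 0.00147) and 0.23 ± 0.0511 (limma, adjusted p = 0.00626). DNAJC3, also an inhibitor of PERK, rose from 12.7, 12.4 and 12.2 FPKM in control to 15.8, 15.1 and 15 with the hairpin alone, with no overlap, by 0.29 ± 0.0528 (limma, adjusted p = 0.00253). With LPS the libraries read 13.3, 11.8 and 12.9 against 14.3, 14.7 and 14.8 with the hairpin. There the difference was 0.20 ± 0.0528 (limma, adjusted p = 0.017), and this call was lost without LPS replicate 2 (limma, adjusted p = 0.0584) and without PINT shRNA1 with LPS replicate 2 (limma, adjusted p = 0.0546) or replicate 3 (limma, adjusted p = 0.0565), and also under median scaling (limma, adjusted p = 0.0607) and with only the groups compared (limma, adjusted p = 0.0507).

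HYOU1, a large HSP70-related protein that exchanges the nucleotide of HSPA5, rose without LPS and was not called with it. Its control libraries held 48, 48.1 and 57 FPKM and the PINT shRNA1 libraries 66.3, 66.4 and 69.8. With LPS it held 50.3, 60 and 56.7 FPKM, against 57.3, 74.5 and 66.7 with the hairpin, and there the groups overlapped. The difference was 0.40 ± 0.0995 (limma, adjusted p = 0.0122) without LPS and 0.24 ± 0.0995 (limma, adjusted p = 0.0936) with it, and 0.34 (limma, adjusted p = 0.0273) without PINT shRNA1 with LPS replicate 1. The difference of these differences was -0.16 ± 0.141 (limma, adjusted p = 0.826). HSP90B1, the HSP90 of the ER, DNAJB11, SDF2L1, which binds DNAJB11, and MANF, a small secreted stress protein, were not called. HSP90B1 stayed between 214 and 242 FPKM in all 12 libraries. MANF came nearest without LPS, at -0.18 ± 0.0634 (limma, adjusted p = 0.0517), with control between 48.5 and 52.8 FPKM and the hairpin libraries between 41 and 48.8, which overlapped, and it was called in 5 of 24 alternatives: median scaling, quantile normalization, a filter of 1 FPKM, robust moderation and without PINT shRNA1 replicate 2 (limma, adjusted p from 0.00766 to 0.0498).

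The lectin chaperones, which hold glycoproteins by their sugar, showed no called difference. CALR, the soluble one, ranged from 195 to 241 FPKM over the 12 libraries. CANX, its membrane-bound relative, read 266, 278 and 283 FPKM in control and 273, 278 and 195 in PINT shRNA1. The library labelled PINT shRNA1 replicate 3 was alone low, and the other 11 libraries lay between 266 and 284. The CANX difference was -0.17 ± 0.106 (limma, adjusted p = 0.28). UGGT1, which marks unfolded glycoproteins for another round, differed by -0.01 ± 0.131 without LPS and 0.02 ± 0.131 with LPS (limma, adjusted p = 0.974 and 0.911).

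Among the protein disulfide isomerases, 2 of 5 were called higher in each comparison (all genes: 16.9% without LPS and 17.7% with it) and 0 lower (all genes: 10.3% and 11.6%). CRELD2, a secreted stress-inducible protein thought to act on disulfide bonds, had the largest difference of the 5. Its levels were 7.42, 6.8 and 7.55 FPKM in control and 10.7, 10.2 and 10.4 in PINT shRNA1. In LPS they were 8.07, 7.44 and 6.52, and in PINT shRNA1 with LPS 9.63, 10.1 and 10.3. All 6 libraries with the hairpin were above all 6 without. CRELD2 differed by 0.50 ± 0.0747 (limma, adjusted p = 0.000748) and 0.42 ± 0.0747 (limma, adjusted p = 0.0017), or 1.41-fold and 1.34-fold. PDIA6, an isomerase that also acts on IRE1, read 166, 168 and 168 FPKM in control, 193, 170 and 192 with LPS alone, 205, 196 and 201.5 with the hairpin alone and 197, 196 and 202 with both. The control libraries were lowest and close together, and LPS libraries 1 and 3 approached the hairpin groups. It was called without LPS, at 0.26 ± 0.0456 (limma, adjusted p = 0.00178), and not with LPS, at 0.10 ± 0.0456 (limma, adjusted p = 0.122). PDIA4 was called with LPS, at 0.15 ± 0.0394 (limma, adjusted p = 0.0159), from 61.1, 62.1 and 57.2 FPKM to 65.3, 66.7 and 68.1. That call was lost without LPS replicate 3 (limma, adjusted p = 0.0539) and without PINT shRNA1 with LPS replicate 3 (limma, adjusted p = 0.06), and also under median scaling (limma, adjusted p = 0.0937) and without the trend (limma, adjusted p = 0.0507). Without LPS PDIA4 differed by 0.08 ± 0.0394 (limma, adjusted p = 0.152). PDIA3, the isomerase that serves the lectin chaperones, kept within 86.5 and 90.6 FPKM in all libraries, and P4HB was not called.

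ER-associated degradation held both the largest fall among the members, that of HERPUD1, and a rise of EDEM1 with the smallest adjusted p among them. HERPUD1, a membrane protein that gathers the degradation complex, read 23.8, 23.6 and 21.4 FPKM in control and 11.3, 13.6 and 15.3 in PINT shRNA1. It read 22.4, 20.4 and 18.4 in LPS and 16, 13.1 and 10.2 in PINT shRNA1 with LPS. Every library with the hairpin was below every library without it. The difference was -0.76 ± 0.149 (limma, adjusted p = 0.00367) and, with LPS, -0.64 ± 0.149 (limma, adjusted p = 0.00864), which is 1.69-fold and 1.56-fold lower. EDEM1, a lectin-like protein that extracts glycoproteins for degradation, went the other way. Its values were 11.4, 11.1 and 10.3 FPKM in control, 10.3, 10.4 and 10.1 with LPS alone, 13.9, 15.3 and 14.5 with the hairpin alone and 14, 14.2 and 14 with both. The 6 hairpin libraries did not overlap the other 6. EDEM1 differed by 0.40 ± 0.0532 (limma, adjusted p = 0.000363) and 0.43 ± 0.0532 (limma, adjusted p = 0.000181). Its paralogs EDEM2 and EDEM3 were not called, at -0.07 ± 0.136 and 0.08 ± 0.0623 without LPS (limma, adjusted p = 0.732 and 0.356).

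DERL1 and DERL2, membrane proteins of the retrotranslocation channel, passed the threshold narrowly in PINT shRNA1 against control and did not pass it with LPS in both groups. DERL1 was at 16.8, 17.1 and 14.7 FPKM in control and 18.5, 20.9 and 19.1 in PINT shRNA1. Its difference was 0.26 ± 0.0876 (limma, adjusted p = 0.0492), and leaving out any of 10 libraries (all but LPS replicates 2 and 3) lost the call, at adjusted p from 0.0567 to 0.16 in limma. It was lost in 16 of 24 alternatives, with median scaling, quantile normalization, a pseudocount of 0.1, no filter, no trend and only the groups compared among them (limma, adjusted p from 0.0502 to 0.112). DERL2 was at 13.7, 16.2 and 14.5 FPKM in control and 18.7, 15.9 and 19.4 in PINT shRNA1, and these groups overlapped. Its difference was 0.27 ± 0.0909 (limma, adjusted p = 0.0473), lost when any of 8 libraries was left out (control replicates 1 and 3, LPS replicate 2, PINT shRNA1 replicates 1 and 3, and each of PINT shRNA1 with LPS), at adjusted p from 0.0519 to 0.153 in limma. It was lost in 15 of 24 alternatives, with median scaling, quantile normalization, no filter, no trend, library weights and only the groups compared among them (limma, adjusted p from 0.0613 to 0.1003). In LPS DERL2 stood at 14.3, 15.7 and 16.5 FPKM and in PINT shRNA1 with LPS at 13.2, 15 and 13.7, a difference of -0.14 ± 0.0909 (limma, adjusted p = 0.268). MIS12, which overlaps DERL2 on the opposite strand, averaged 9.99 FPKM in control, 8.46 with LPS alone, 12.2 with the hairpin alone and 7.12 with both, and the counting is not stated to use strand. The ubiquitin ligase SYVN1, its partner SEL1L and the lectin OS9, which together form the core of the degradation complex, were not called in either comparison, with differences from -0.02 to 0.15.

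Translocation genes were called higher at 2 of 6 members without LPS and at 1 of 6 with it, where 16.9% and 17.7% of all genes were, so that the count with LPS is at the share of all genes. SEC61B, the small beta subunit of the channel, was at 89.2, 94.6 and 89 FPKM in control and 110, 103 and 113.5 in PINT shRNA1. It was at 92.4, 91.3 and 92.9 in LPS and 112, 111 and 116.5 in PINT shRNA1 with LPS. Hairpin and other libraries did not overlap. The differences were 0.26 ± 0.0422 (limma, adjusted p = 0.00125) and 0.30 ± 0.0422 (limma, adjusted p = 0.000486). SEC61A1, the pore-forming subunit, had the largest estimate and the least certain one. Its libraries read 54.3, 48.6 and 57.8 FPKM in control, 46.8, 66.6 and 49.2 with LPS alone, 104, 71.3 and 112 with the hairpin alone and 53.4, 110 and 49.9 with both. Libraries 1 and 3 of PINT shRNA1 and library 2 of PINT shRNA1 with LPS were high, and the other 2 libraries of the last group lay within the range of control. The difference was 0.81 ± 0.275 (limma, adjusted p = 0.04999) without LPS and 0.31 ± 0.275 (limma, adjusted p = 0.444) with LPS, and leaving out any of 9 libraries (each of control and LPS, PINT shRNA1 replicates 1 and 3, and PINT shRNA1 with LPS replicate 1) lost the call at adjusted p from 0.0507 to 0.149 in limma. It was lost in 17 of 24 alternatives, with median scaling, quantile normalization, a pseudocount of 0.1, no filter, no trend, robust moderation and library weights among them (limma, adjusted p from 0.0507 to 0.125). RUVBL1, on the opposite strand and overlapping, averaged 61.5, 63.6, 68.6 and 72.2 FPKM over control, LPS alone, the hairpin alone and both. SSR1, SSR2 and SSR3, subunits of the translocon-associated protein complex, and SEC24D, a cargo adaptor of COPII vesicles, were not called.

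**Figure D3:**
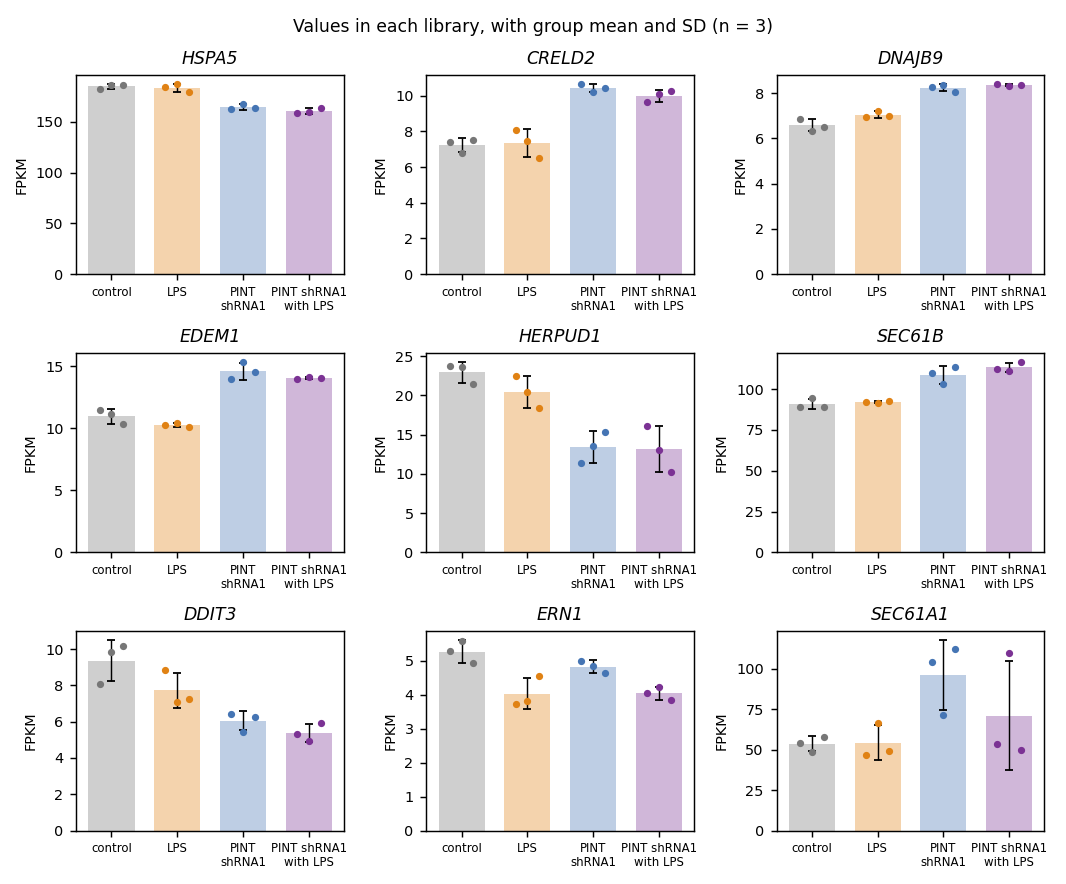
FPKM of 9 members in each library (points), with the group mean as a bar from 0 and the SD as the error bar (n = 3). HSPA5, HERPUD1 and DDIT3 are lower and CRELD2, DNAJB9, EDEM1 and SEC61B higher in both hairpin groups, ERN1 is lower in both groups given LPS, and SEC61A1 is split within PINT shRNA1 with LPS.

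Of the sensors, none was called between hairpin and other libraries, but ATF6 was called lower with LPS under median scaling. ERN1 differed by -0.11 ± 0.0821 without LPS and 0.01 ± 0.0821 with LPS (limma, adjusted p = 0.343 and 0.963). ATF6 ran from 8.32 to 8.57 FPKM in control and, with the hairpin alone, from 7.66 to 8.35, a difference of -0.08 ± 0.0499 (limma, adjusted p = 0.297). With LPS it ran from 8.31 to 8.52 and from 7.69 to 7.85, with no overlap, at -0.11 ± 0.0499 (limma, adjusted p = 0.124), and under median scaling at -0.16 (limma, adjusted p = 0.0315). EIF2AK3 spanned 7.33 to 8.5 FPKM in control against 7.52 to 8.21 with the hairpin alone, and 6.72 to 7.3 with LPS alone against 6.41 to 7.69 with both, so both pairs of groups overlapped. XBP1 varied more: its libraries read 30.3, 30.3 and 23.9 FPKM in control, 25.9, 34.1 and 25.4 with LPS alone, 20.4, 25.2 and 28.2 with the hairpin alone and 25.2, 22.2 and 21.7 with both. The XBP1 difference was -0.20 ± 0.144 without LPS and -0.29 ± 0.144 with LPS (limma, adjusted p = 0.35 and 0.161).

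Downstream of PERK, DDIT3 was called lower in both comparisons and PPP1R15A in the one without LPS. DDIT3, the transcription factor CHOP that promotes cell death in lasting stress, read 8.06, 9.82 and 10.2 FPKM in control and 6.43, 5.44 and 6.27 in PINT shRNA1. It read 8.82, 7.09 and 7.26 in LPS and 5.3, 4.91 and 5.91 in PINT shRNA1 with LPS. All 6 hairpin libraries were below the other 6. The differences were -0.58 ± 0.113 (limma, adjusted p = 0.00329) and -0.48 ± 0.113 (limma, adjusted p = 0.00846), or 1.5-fold and 1.4-fold lower. MARS, the methionyl-tRNA synthetase gene that overlaps DDIT3 on the opposite strand, averaged 49.6 FPKM in control, 52.8 with LPS alone, 38.3 with the hairpin alone and 34.5 with both, and reads of the overlap cannot be told apart without strand. PPP1R15A, the phosphatase subunit that reverses the translation block, read 20.9, 19.2 and 19.9 FPKM in control and 18, 16.8 and 18.1 in PINT shRNA1. Its difference was -0.18 ± 0.0474 (limma, adjusted p = 0.0185), lost without control replicate 1 (limma, adjusted p = 0.0657) or PINT shRNA1 replicate 2 (limma, adjusted p = 0.0693), or with only the groups compared (limma, adjusted p = 0.08). With LPS it was -0.12 ± 0.0474 (limma, adjusted p = 0.0848), and it was called under median scaling (limma, adjusted p = 0.0173) and quantile normalization (limma, adjusted p = 0.0491). Other called members also overlap genes on the opposite strand. From control to the hairpin alone, ALG12 beside CRELD2 averaged 2.42 and 2.86 FPKM, ATP6V1C2 beside PDIA6 2.94 and 4.84, THAP5 beside DNAJB9 10.3 and 11.4, and TBC1D31 beside DERL1 5.34 and 6.04. Other overlapping genes moved against their member. PNPLA8, also beside DNAJB9, averaged 8.46 and 8.3 FPKM, and MBD6, also beside DDIT3, 6.83 and 7.56. The part of such overlaps in the calls was not tested.

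The hairpin comparisons without and with LPS share no library, though they share the estimate of spread. Of the 14 members called without LPS and the 9 called with it, 8 were called in both with the same sign: HSPA5, DNAJB9, DNAJC3, CRELD2, HERPUD1, EDEM1, SEC61B and DDIT3. That is 57.14% of the first list and 88.89% of the second, where the calls of all genes shared 70.89% and 66.1%. Signs matched in 29 of 37 members (78.38%) and in 77.3% of all genes tested. HYOU1, PDIA6, DERL1, DERL2, SEC61A1 and PPP1R15A were called without LPS and not with it, and PDIA4 with LPS and not without it, but a difference between the comparisons is what the interaction tests, and it was called for 0 of 37 members. For the interaction 0.0349% of all genes were called higher and 0.0929% lower, and at an unadjusted p under 0.05 there were 0 members higher and 2 lower (all genes: 3.57% and 4.18%), DERL2 at -0.42 ± 0.129 (limma, adjusted p = 0.449) and PDIA6 at -0.16 ± 0.0645 (limma, adjusted p = 0.591). The members' median interaction was 0.00 and that of all genes 0.00.

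Few members differed by the test between LPS alone and control. Of 37 members 0 were called higher, where 1.57% of all genes were, and 1 was called lower, where 1.19% of all genes were. The members' median was 0.00 and that of all genes -0.04. The called gene was ERN1, the gene of the sensor IRE1. ERN1 read 5.28, 5.59 and 4.94 FPKM in control and 3.72, 3.82 and 4.54 in LPS. In PINT shRNA1 it read 5, 4.83 and 4.64, and in PINT shRNA1 with LPS 4.06, 4.21 and 3.83. Each group given LPS lay below its partner with no overlap, as was so for 11.94% of all genes tested without the hairpin and 13.22% with it. The share of all genes apart in both was not counted. The difference was -0.35 ± 0.0821 (limma, adjusted p = 0.049) without the hairpin, 1.28-fold lower, and -0.23 ± 0.0821 (limma, adjusted p = 0.442) with it, and the interaction was 0.12 ± 0.116 (limma, adjusted p = 0.844). The call was lost when any library but LPS replicate 3 was left out (11 of 12), at adjusted p from 0.0596 to 0.138 in limma. PDIA6 was higher in every LPS library than in control, at 0.14 ± 0.0456 (limma, adjusted p = 0.134), and was called without LPS replicate 2 (limma, adjusted p = 0.0139). Unadjusted p under 0.05 was reached by 1 of 37 members higher and 4 lower, where 6.13% and 10.7% of all genes reached it. The groups did not overlap for 2 members higher and 4 lower, against 1.57% and 1.19% of genes called and 7.215% and 11.94% of all genes without overlap.

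In hairpin libraries LPS gave no called member in either direction (limma), where 0.163% of all genes were called higher and 0.0232% lower. At an unadjusted p under 0.05 there were 1 of 37 members higher and 4 lower, where 2.97% and 5.79% of all genes were. PPP1R15A was the higher one, with 18, 16.8 and 18.1 FPKM in PINT shRNA1 and 19.3, 19.7 and 19.7 in PINT shRNA1 with LPS, at 0.15 ± 0.0474 (limma, adjusted p = 0.397). DERL2 at -0.35 ± 0.0909, EDEM2 at -0.32 ± 0.136, ERN1 and EIF2AK3 at -0.18 ± 0.0795 were the lower ones (limma, adjusted p from 0.249 to 0.54). EDEM2 read 6.54, 7.91 and 10.5 FPKM in PINT shRNA1 with LPS against 9.61, 10.1 and 11.5 in PINT shRNA1. The members' median and that of all genes were -0.03 and -0.04.

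**Figure D4:**
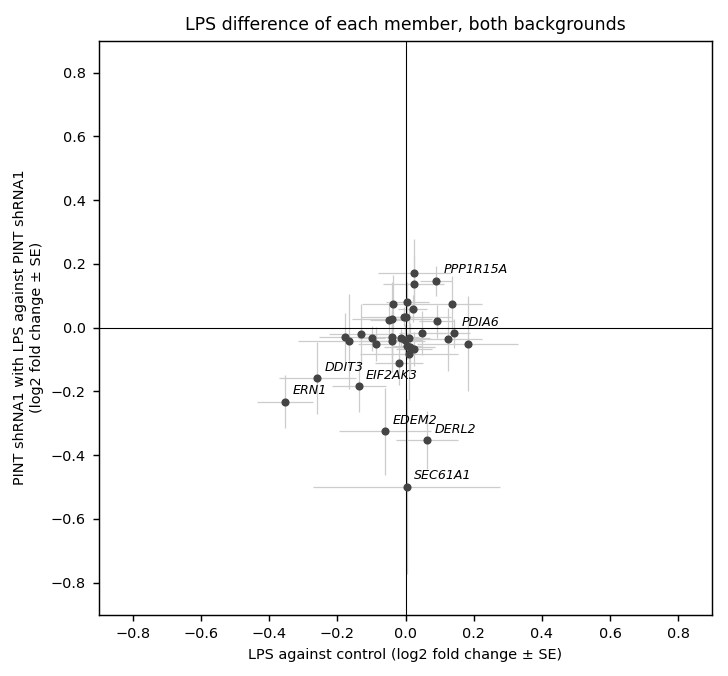
Log2 fold change ± SE of each member on LPS, without the hairpin (x axis) and with it (y axis), on the log2(FPKM + 0.5) scale. Most of the 37 points lie near 0 on both axes. ERN1 is negative on both, and SEC61A1, DERL2 and EDEM2 are low on the y axis and near 0 or above on the x axis, with wider errors for SEC61A1 and EDEM2 than for DERL2.

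The 10 members with an ER stress response element in the window shown above did not share a direction. In PINT shRNA1 against control 3 of them were called higher (HYOU1, PDIA6 and CRELD2; all genes: 16.9%) and 2 lower (HSPA5 and HERPUD1; all genes: 10.3%). Of their differences 5 were above 0 and 5 below, the median was 0.01 and the range -0.76 to 0.50. Of the 24 with a window and neither element, 6 were called higher and 2 lower, with a median of 0.05. With LPS in both groups 1 of the 10 was called higher and 2 lower, and of the 24 it was 5 and 1, where 17.7% and 11.6% of all genes were. HSPA5, PDIA6 and CRELD2 all carry element I within 90 bases before the start site. Without LPS HSPA5 was called lower and PDIA6 and CRELD2 higher, and with LPS in both groups PDIA6 was not called. XBP1, HSP90B1 in a copy and CANX from a start site carry element I within that distance too. They were not called in either comparison. HYOU1 and HERPUD1 both carry element II, and HYOU1 was called higher without LPS and HERPUD1 lower.

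The rest of the pathway was followed in 7 other lists. Their counts stand against 16.9% of all genes called higher and 10.3% lower without LPS, and 17.7% and 11.6% with LPS in both groups. Other ER folding genes were called higher at 15 and lower at 4 of 37 in PINT shRNA1 against control and at 14 and 5 with LPS in both groups, with medians of 0.20 and 0.18. ERP44, a thiol chaperone, was at 15.7 ± 0.436 FPKM in control and 22.7 ± 0.22 in PINT shRNA1, 0.52 ± 0.0461 higher (limma, adjusted p = 2.32e-05). MESDC2, a chaperone of LDL-receptor family proteins, went from 11.3 ± 2.06 to 6.52 ± 0.935, at -0.75 ± 0.157 (limma, adjusted p = 0.00529). Other translocation and glycosylation genes were called higher at 10 and lower at 1 of 30, and at 9 and 3 with LPS. Both subunits of glucosidase II, which trims the sugars that CALR and CANX read, were among them. GANAB, the catalytic subunit, went from 64.1 ± 2.23 FPKM in control to 120 ± 3.72 in PINT shRNA1, and from 65.9 ± 1.49 in LPS to 120 ± 2.38 in PINT shRNA1 with LPS. Its differences were 0.90 and 0.86, both ± 0.038 (limma, adjusted p = 9.78e-08 and 1.13e-07). PRKCSH, the other subunit, differed by 0.63 and 0.64 (limma, adjusted p = 8.91e-05 and 7.28e-05). CALR and CANX themselves were not called, as given above.

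Other ER-associated degradation genes were called higher at 9 and lower at 3 of 38, and at 8 and 5 with LPS. That is 31.58% called without LPS, against 27.26% of all genes and 33.64% of those within the members' range of mean FPKM, and the 13 called with LPS were 8 without PINT shRNA1 with LPS replicate 3. UBE2J1, a ubiquitin-conjugating enzyme anchored in the ER membrane, fell from 52.3 ± 2.32 FPKM in control to 31.7 ± 1.41 in PINT shRNA1, at -0.71 ± 0.0476 (limma, adjusted p = 2.93e-06). COPII coat and export genes were called higher at 4 and lower at 2 of 23 in both comparisons. That is 26.09%, below the 27.26% and 29.24% of all genes, and it fell to 3 genes without PINT shRNA1 replicate 3 in the first comparison, and without LPS replicate 2 or PINT shRNA1 with LPS replicate 3 in the second. Cytosolic heat shock genes were called higher at 7 and lower at 4 of 32 without LPS, and at 4 and 2 with it, where 3 were called without replicate 1 or 3 of PINT shRNA1 with LPS. Other stress regulators were called higher at 7 and lower at 2 of 31, and at 8 and 5 with LPS, where the 13 were 6 without LPS replicate 1 and 7 without PINT shRNA1 with LPS replicate 2. PPP1R15B, the constitutive counterpart of PPP1R15A, rose from 12.6 ± 0.397 to 18.1 ± 0.899 FPKM, by 0.51 ± 0.0519 (limma, adjusted p = 6.2e-05), while PPP1R15A was lower.

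The PERK-ATF4 branch, a list of ATF4, its known targets and amino acid and tRNA synthetase genes, was called lower at 23 and higher at 1 of 37 in PINT shRNA1 against control, and at 20 and 2 with LPS in both groups, where 10.3% and 11.6% of all genes were called lower and 16.9% and 17.7% higher. Its medians were -0.38 and -0.32, against 0.06 and 0.05 over all genes, and the lower calls numbered 21 to 24 and 17 to 23 over the alternatives tried. PSAT1, an enzyme of serine synthesis, was at 119 ± 1.76 FPKM in control and 40.8 ± 1.63 in PINT shRNA1, and at 107 ± 5.66 in LPS and 36.7 ± 1.05 in PINT shRNA1 with LPS. Its differences were -1.53 and -1.54 (limma, adjusted p = 8.81e-09 and 8.11e-09). ATF4, named after its values were seen, differed by -0.49 ± 0.111 (limma, adjusted p = 0.00788) and -0.77 ± 0.111 (limma, adjusted p = 0.000524). DDIT3 and PPP1R15A, both targets of ATF4, were called lower without LPS, while EIF2AK3, the gene of PERK, was not called. Its relative EIF2AK4, from the other stress regulators, was called lower without LPS, at -0.243 to -0.168 over the alternatives (limma, adjusted p up to 0.0371). EIF2AK2, another relative from that list, was called lower with LPS in both groups, a call lost in 4 of 24 alternatives. Whether the lower levels of the PERK-ATF4 list come through PERK was not tested. Some genes of the PERK-ATF4 list were already known to be lower in these data when the list was drawn up, so its direction is not independent evidence. On LPS alone the 228 tested genes of the 7 lists had 2 called higher, STC2 and TNFRSF10B, and 1 lower, DDIT4, where 1.57% and 1.19% of all genes were. The TNFRSF10B call was lost in 15 of 24 alternatives, among them leaving out any library but PINT shRNA1 with LPS replicate 3, at adjusted p up to 0.131 in limma. STC2 and DDIT4 were lost with only the groups compared (limma, adjusted p = 0.112 and 0.0795).

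**Figure D5:**
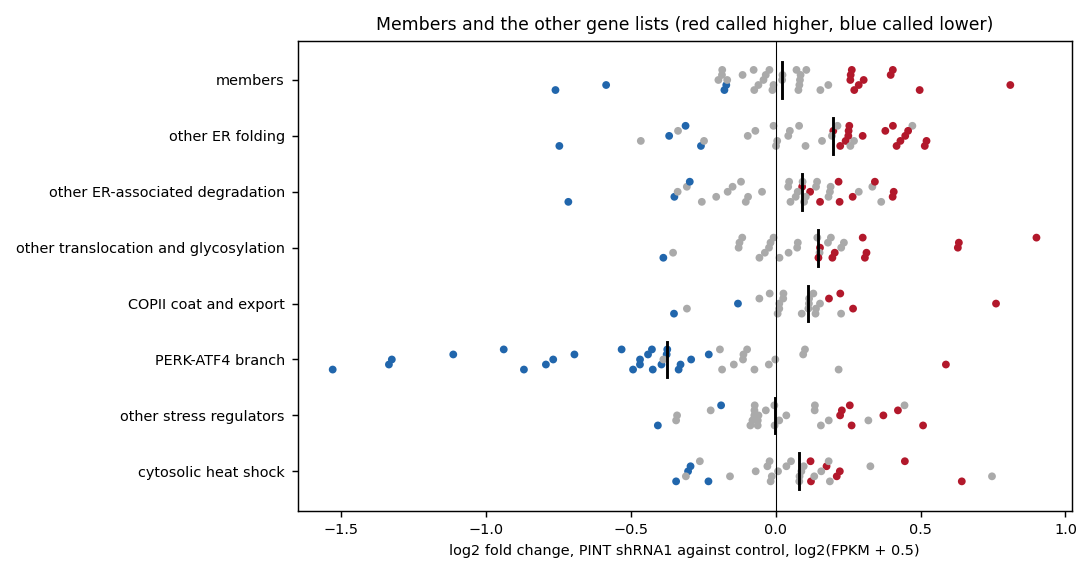
Log2 fold change for PINT shRNA1 against control of each tested gene of the 37 members and of 7 other lists, on the log2(FPKM + 0.5) scale, with the median as a black bar. The members spread on both sides of 0 with a median of 0.02, other ER folding genes have a median of 0.20, and the PERK-ATF4 branch has a median of -0.38.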

How the data were processed

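The samples are 12 RNA sequencing libraries of SW480, in 4 groups of 3. The deposited values are FPKM per gene, made by the authors. GRCh37/hg19, StringTie 1.3.4d, HISAT2 2.1.0 and fastp are listed, without roles, per the submitters' processing notes. Whether counting used strand is not given in the sources used here. The 15 samples include 6 of PINT shRNA1, and each of its 3 columns is named by 2 of them. Another 6 columns were not used. Separate cultures are not stated for the replicates, and the spread behind every p-value may be technical. FPKM give no counts, so absolute depth is unknown, and depth relative to control replicate 1 was read from steps of low values (0.01 to 0.3 FPKM).

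The fit took log2(FPKM + 0.5) of genes at 0.5 FPKM or more in 3 or more libraries (limma 3.58.1, R 4.3.3). This was 1 group-means fit of all libraries with an intensity trend and two-sided contrasts, adjusted by Benjamini-Hochberg over all genes of a contrast. The interaction is the LPS difference with the hairpin minus that without it. The fit was run on simulated data with changes added for LPS against control only. The simulated noise was independent between libraries, with no difference in depth and no hairpin difference, so it does not cover the hairpin comparisons. All members may be named. From the 7 other lists, at most the 2 highest and 2 lowest called genes of a contrast are named, and ATF4 beyond that. The members and lists were chosen with earlier results of these data known. Promoter windows are from RefSeq, and overlapping genes from GENCODE 29, used for names because its build differs.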

Additional observations from a re-analysis of the deposited data

How the results depend on the processing

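Each comparison was repeated under 24 alternatives (23 for the interaction): 3 scalings, a filter of 1 FPKM or none, pseudocounts of 1 and 0.1, no trend, robust moderation, a replicate block, only the groups compared, library weights per group (added after the data were seen) and leaving out each library. Of the 24 member differences called, 17 were called in every alternative, 7 were lost in at least 1 and 0 were reversed. Another 9 uncalled differences were called in at least 1. With LPS in both groups these included DNAJB11 and DERL1 without LPS replicate 2 (limma, adjusted p = 0.0172 and 0.0184), EDEM2 without PINT shRNA1 with LPS replicate 3 (0.00586) and P4HB without PINT shRNA1 replicate 3 and with only the groups compared (0.0425 at the lowest, in the latter). The 1 member called on LPS went to 0 under median scaling, quantile normalization, a common total, no filter, robust moderation, the replicate block, library weights and only the groups compared, and was 0 to 1 with a library left out. Without LPS replicate 2 the 1 called was PDIA6, not ERN1. Over all genes LPS called 475, against 311 with the replicate block, 264 with weights, 127 with only the groups compared and 293 to 412 with a library left out (295 without control replicate 2, 293 without LPS replicate 3). On LPS with the hairpin 32 genes were called, against 60 under median scaling, 57 under quantile normalization, 18 without the trend, 17 with the replicate block, 65 with weights and 19 to 40 with a library left out (19 without PINT shRNA1 replicate 1, 20 without replicate 2). The interaction called 22 genes and 14 with the replicate block. For both hairpin comparisons the totals of members and of all genes called stayed within 1.5 times, also with the block, but members called lower with LPS went from 3 to 5 under median scaling, and counts of COPII (6 to 3), heat shock with LPS (6 to 3, also with no filter or no trend), other stress regulator (13 to 6) and other degradation genes with LPS (13 to 8) moved by more. The block lost the calls of DERL2 and SEC61A1 without LPS (limma, adjusted p = 0.0629 and 0.0744). Libraries of the same number did not deviate together over all genes (correlations from -0.0351 to 0.0569), so no pairing by number was seen. A weak pairing, or one limited to few genes, would not show in these values. Each member symbol has 1 row, so summing rows was not run. Absolute depth being unknown, no counting error can be given for a low gene such as ERN1.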
